A study of Mus musculus with 2 samples.

Results

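The tricarboxylic acid cycle oxidizes the acetyl group of acetyl-CoA to CO2 in the mitochondrial matrix and passes the electrons on to the respiratory chain. Citrate synthase joins acetyl-CoA to oxaloacetate, a run of dehydrogenases and a ligase carries the product back to oxaloacetate, and citrate that leaves the matrix is a source of acetyl-CoA for lipid synthesis and histone acetylation. In macrophages the cycle is known for its ties to activation, through citrate, succinate and itaconate. The 9 genes examined here were Cs, Idh3a, Idh3b, Idh3g, Ogdh, Suclg1, Sucla2, Fh1 and Mdh2. They encode cycle enzymes other than succinate dehydrogenase. Chosen by symbol, they made up 9 of the 20330 genes with a value, and all 9 passed the filter, an FPKM of 1 or more in either library, as did 10297 genes in all. The unit FPKM counts fragments per kilobase of a transcript and per total of mapped fragments, so levels can be compared between genes.

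Adipose tissue macrophages (ATM) were sorted with F4/80 and CD11b antibodies from visceral fat of C57BL/6 mice after 12 weeks of high-fat diet. The WT library came from hMRP8cre-;Hif-1αfl/fl;ApoE-/- mice and the KO library from hMRP8cre+;Hif-1αfl/fl;ApoE-/- mice, so the labels give floxed Hif-1α alleles and an ApoE-/- genotype to both. Cre was driven by the promoter of human MRP8, a myeloid calcium-binding protein, so that deletion was aimed at myeloid cells as a whole and not at ATM alone. The labels do not give the age of the mice, which were young when the diet began by the study's methods, nor whether animals were pooled, and there was 1 library per genotype. The differences below therefore lack replicates, and none was given a p-value. In such bulk samples, fewer cells of a type and less RNA per cell cannot be told apart.

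Depth was estimated at 5860000 fragments for the WT library and 7470000 for the KO library. Hif1a, the targeted gene, was at 30.4 FPKM in WT against 20.97 FPKM in KO, a change of -0.52, with the value covering the whole gene and not only the floxed part. Apoe was at 94.3 FPKM and 117 FPKM, above 91.8% and 93.5% of the genes listed above 0, although both libraries are labelled ApoE-/-. This value too covers the whole gene and cannot show whether the transcript is intact, so the label was not tested. Of 11 macrophage markers in the table, all were above 0 in both libraries, and their summed level was 15539 FPKM in WT against 15035 FPKM in KO. Neutrophil markers summed to 158 FPKM in WT against 521 FPKM in KO. All 6 of those past the filter were higher in KO, where 51.3% of all genes tested were higher, while Camp, Ltf and Mmp8 were at 0 in both. However, Retnlg (0.385 and 2.46 FPKM) and Ngp (listed at 0 and 2.61 FPKM) passed the filter only through KO, which fixed their direction. The 5 fibroblast markers summed to 43.2 and 83.9 FPKM and were all higher in KO. Here Col1a2 (0.0948 and 4.75 FPKM) and Pdgfra (0.0246 and 4.98 FPKM) likewise passed only through KO. Eosinophil markers summed to 6.50 and 33.1 FPKM, with Siglecf, Prg2 and Epx at 0 in both, and the T cell markers Cd3d, Cd3e, Cd3g and Lck were at 0 in both. Dendritic cell markers summed to 125 and 140 FPKM, nearly all of it Cd209a. Of the 3 past the filter, 2 were higher and 1 was lower in KO. Zbtb46 was at 9.45 FPKM in KO but listed at 0 in WT. Xcr1 was at 1.65 FPKM in WT against 0.0588 FPKM in KO, and Ccr7 at 0.529 FPKM and listed at 0. B cell markers summed to 2.75 and 6.46 FPKM. Cd79a was at 2.50 and 0.222 FPKM, while Cd79b was listed at 0 in WT and 5.52 FPKM in KO. Adipocyte markers summed to 113 and 113 FPKM, most of it Fabp4 at 90.1 and 91.4 FPKM, with Adipoq and Plin1 at 0 in both. Cidec was at 5.83 FPKM in WT and listed at 0 in KO, and Lep was listed at 0 in WT and 1.60 FPKM in KO. Endothelial markers summed to 18.4 and 16.1 FPKM, with 3 higher and 2 lower in KO. Of these, Tie1 was at 4.12 FPKM in WT and listed at 0 in KO. Of the mesothelial markers Upk3b was at 7.84 FPKM in KO but listed at 0 in WT, and Msln, Krt19 and Wt1 were at 0 in both. The part of such cells in the cycle gene values was not tested.

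The question put to the data was whether transcripts of the cycle enzymes differed between ATM with and without the Cre aimed at HIF-1α. HIF-1α is the oxygen-regulated subunit of a factor known to favour glycolysis. The transcripts differed in no common direction. Cs, Ogdh, Suclg1 and Sucla2 were higher in KO and Idh3a, Idh3b, Idh3g, Fh1 and Mdh2 were lower. This put 4 of 9 on the higher side, where 51.3% of all genes tested lay. The median change of the 9 genes was -0.08 on the scale of log2(FPKM + 1), KO minus WT, beside 0.03 over all genes tested. Their summed level was 411 FPKM in WT against 377 FPKM in KO, a log2 ratio of -0.13.

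None of the 9 genes was 3-fold different on that scale, whereas 27.3% of all genes tested were (13.6% higher and 13.7% lower in KO). Agreement between the libraries depended on level, so genes with a mean FPKM in the range of the 9, from 4.40 to 163, were taken as a second background. Of those 6741 genes, 20.3% were 3-fold different. The 9 genes also reached an FPKM of 1 in each library, and of the 7586 genes that did so 11.5% were 3-fold different. At a 2-fold threshold Suclg1 and Sucla2 passed, both higher in KO, against 23.1% of all genes tested that were 2-fold higher. The changes of 7 of the 9 genes lay within the interquartile range of all genes tested, from -0.85 to 0.89. A count of 0 or 2 among 9 genes is small, and no test of the list was made.

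**Figure D1:**
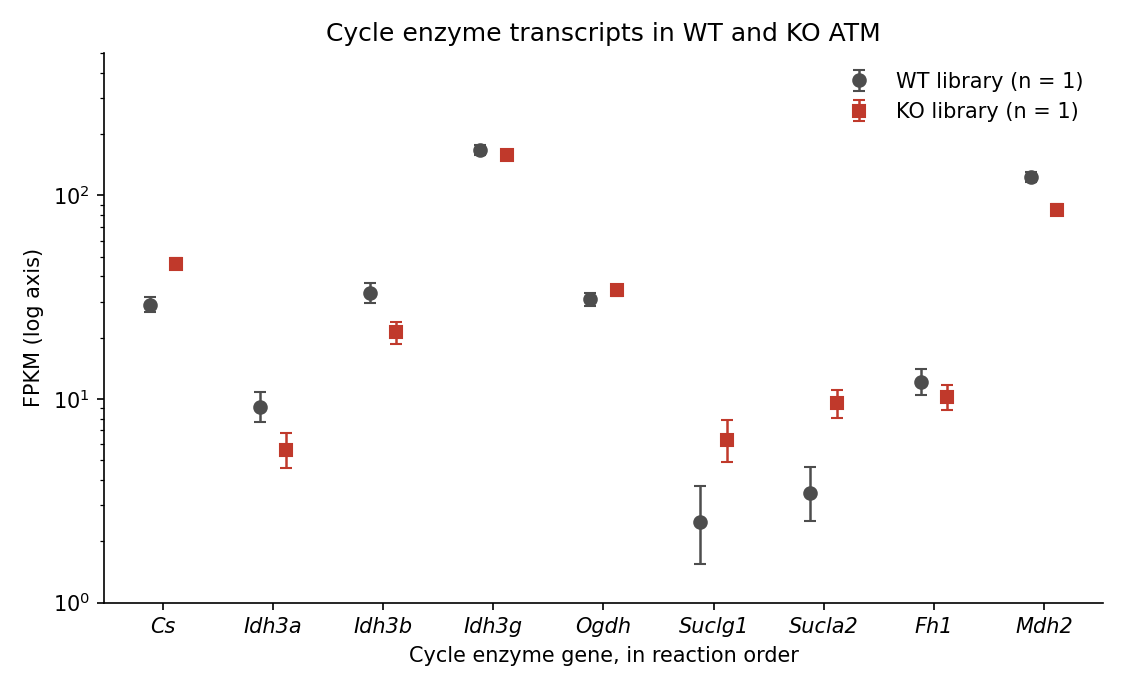
FPKM on a log axis for the 9 cycle enzyme genes in the WT library (grey circles) and the KO library (red squares), 1 library each. Bars are 95% exact Poisson intervals of the estimated fragments and cover counting error only. Idh3g and Mdh2 lie highest in both libraries, and Suclg1 and Sucla2 are the genes with the widest gap between libraries.

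Counting error alone was small for most of these genes. The 95% Poisson intervals of the WT and KO values did not overlap for 6 of the 9, the exceptions being Idh3g, Ogdh and Fh1. However, the intervals were also apart for 77.9% of genes in the same range of levels and for 80.1% of all genes tested, so this separation is usual for this pair of libraries.

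Levels within the cycle spanned a wide range. The highest gene was 67.2 times the lowest in WT and 28.2 times the lowest in KO. Idh3g and Mdh2 together made up 70.7% of the summed FPKM of the 9 genes in WT and 64.7% in KO. The order in WT was Idh3g, Mdh2, Idh3b, Ogdh, Cs, Fh1, Idh3a, Sucla2 and Suclg1. In KO it was Idh3g, Mdh2, Cs, Ogdh, Idh3b, Fh1, Sucla2, Suclg1 and Idh3a. Spearman's rho between the libraries over the 9 genes was 0.88, a description across genes that share both libraries. Idh3g, Mdh2, Ogdh and Fh1 kept their places. Cs and Idh3b traded the third and the fifth place, and in KO Idh3a stood behind both succinyl-CoA ligase genes. Neighbours in WT such as Idh3b, Ogdh and Cs were close, with counting intervals of 29.7 to 37.2, 28.7 to 33.2 and 26.6 to 31.8 FPKM that overlapped.

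The 9 genes shared little in place or structure. Each lies on a chromosome of its own, and the longest coding transcript ran from 1331 nt for Idh3g to 4127 nt for Ogdh, with a median of 2229 nt beside 3114 nt over all genes tested. Transcript GC content had a median of 50.4%, beside 50.3%. RefSeq start sites (GRCm38.p6) were found for 8 of the 9 genes in the table used here, all but Idh3a. The 250 bases before the start held a median of 16.5 CpG dinucleotides in these 8, beside 16 over the 8120 tested genes with a start.

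The genotype was aimed at HIF-1α. The letters ACGTG and GCGTG, the core to which HIF binds, were therefore searched on both strands of these windows, overlaps allowed. They were found in 5 of 8 genes (Idh3g, Ogdh, Suclg1, Fh1 and Mdh2), beside 57.6% of tested genes and 38.6% of all 27025 genes with a start. The windows of Idh3b, Suclg1 and Mdh2 lay partly, and that of Sucla2 wholly, inside the gene as GENCODE M21 places it. The only match of Mdh2 and the last of Suclg1 fell inside the gene. Of these 5 genes, Ogdh and Suclg1 were higher and Idh3g, Fh1 and Mdh2 lower in KO. The letters AAGGTCA of the estrogen-related receptor motif were in 0 of 8 windows, against 2.66% of tested genes. CCGGAAG of ETS factors was in that of Idh3g alone, against 14.7%. A match is a description of the letters and not of binding. The sequences of Cs (no match, higher in KO), Suclg1 (GCGTG on the opposite strand, higher in KO) and Idh3g (both cores and the ETS letters, nearly level) are shown 5′ to 3′ on the strand of the gene, with matches in capitals, up to the first base that GENCODE M21 places in an exon. They are at GRCm38.p6 chr10:128337477-128337726 (plus), chr6:73248255-73248381 (plus) and chrX:73786898-73787147 (minus).
Cs: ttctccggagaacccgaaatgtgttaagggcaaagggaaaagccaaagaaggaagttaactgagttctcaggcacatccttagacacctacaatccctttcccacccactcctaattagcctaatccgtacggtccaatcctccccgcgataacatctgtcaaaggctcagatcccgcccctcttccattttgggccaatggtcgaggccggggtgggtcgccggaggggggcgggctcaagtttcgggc
Suclg1: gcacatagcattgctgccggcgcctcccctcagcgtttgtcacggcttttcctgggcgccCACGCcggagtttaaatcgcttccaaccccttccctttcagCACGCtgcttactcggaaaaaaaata
Idh3g: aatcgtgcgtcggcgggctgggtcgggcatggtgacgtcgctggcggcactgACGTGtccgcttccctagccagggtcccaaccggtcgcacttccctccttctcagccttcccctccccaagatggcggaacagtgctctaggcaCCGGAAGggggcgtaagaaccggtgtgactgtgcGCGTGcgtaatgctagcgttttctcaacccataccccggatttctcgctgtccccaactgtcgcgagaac

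Citrate synthase opens the cycle. Cs (ENSMUSG00000005683, GRCm38 chr10:128337734-128362479, plus strand) was at 29.1 FPKM in WT against 46.1 FPKM in KO, a change of 0.65. The KO level was 1.59 times the WT level on an estimated 499 and 1007 fragments. Among genes with a mean FPKM of 20 to 50, where Cs lies, the upper quartile of the change was 0.59 and 13.4% were 2-fold higher, so Cs stood just above that quartile.

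Isocitrate dehydrogenase 3 makes 2-oxoglutarate and NADH, with a catalytic alpha subunit (Idh3a) and the beta and gamma subunits (Idh3b, Idh3g) that regulate it. Idh3a (ENSMUSG00000032279, chr9:54586334-54604661, plus strand) was at 9.15 FPKM in WT against 5.62 FPKM in KO, 38.6% lower, a change of -0.62. Idh3b (ENSMUSG00000027406, chr2:130279309-130284547, minus strand) was at 33.3 and 21.2 FPKM, 36.2% lower, a change of -0.63. Idh3g (ENSMUSG00000002010, chrX:73778963-73786897, minus strand) was at 168 and 159 FPKM, 5.34% lower, a change of -0.08. All 3 subunits were thus on the lower side, and the alpha and beta subunits differed by nearly the same factor while the gamma subunit hardly differed.

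The subunits were present at very unequal levels. In WT, Idh3g made up 79.8% of their summed FPKM and Idh3a 4.36%, and in KO these shares were 85.5% and 3.03%. The Idh3g level was 18.3 times that of Idh3a in WT and 28.2 times in KO, whereas Idh3b stood at 3.64 times Idh3a in WT and 3.78 times in KO. The NAD-dependent enzyme has NADP-dependent relatives, Idh2 in mitochondria and Idh1 in the cytosol. Idh2 was at 33.6 FPKM in WT against 32.1 FPKM in KO, a change of -0.06. Idh1 was at 44.2 and 12.9 FPKM, a change of -1.71, which passed the 3-fold threshold. The 3' end of Idh3b overlaps that of Nop56 on the other strand by 5 bases. Nop56 was at 23.5 FPKM in WT against 41.8 FPKM in KO, the opposite direction, and the library preparation is not described as marking strand.

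The 2-oxoglutarate dehydrogenase complex follows, with Ogdh as the first enzyme, Dlst as the succinyltransferase core and Dld as the lipoamide dehydrogenase that it shares with pyruvate dehydrogenase. Ogdh (ENSMUSG00000020456, chr11:6291633-6356642, plus strand) was at 30.9 FPKM in WT against 34.2 FPKM in KO, a change of 0.14. It held 58.2% of the summed FPKM of the 3 genes in WT and 58.0% in KO. Its partners lay on opposite sides. Dlst was at 17.8 and 9.50 FPKM, a change of -0.84, and Dld was at 4.36 and 15.3 FPKM, a change of 1.60 that passed the 3-fold threshold, but that was 1.58 and fell short of it once changes were centred on the median. Mrps36, which encodes an adaptor of the complex, was at 7.08 and 14.8 FPKM.

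Succinyl-CoA ligase turns succinyl-CoA into succinate with the formation of ATP or GTP. Suclg1 encodes the alpha subunit, which pairs with the beta subunit Sucla2 in the ATP-forming enzyme or Suclg2 in the GTP-forming one. Suclg1 (ENSMUSG00000052738, chr6:73248382-73276911, plus strand) was at 2.49 FPKM in WT against 6.30 FPKM in KO, a change of 1.06. Sucla2 (ENSMUSG00000022110, chr14:73525319-73596142, plus strand) was at 3.44 and 9.51 FPKM, a change of 1.24. These were the 2 largest differences among the 9 genes, and KO levels were 2.53 and 2.76 times those of WT.

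Both genes were also low. Suclg1 had about 22.2 estimated fragments behind its WT value and 71.5 behind its KO value, with counting intervals of 1.55 to 3.74 FPKM and 4.89 to 7.90 FPKM. For Sucla2 these were 44.9 and 158 fragments. Only 18.8% of the genes listed above 0 in WT were below Suclg1, against 39.2% in KO. At a mean FPKM of 4 to 8, where both lie, 26.6% of 1824 genes were 2-fold higher and 26.4% were 2-fold lower, so differences of this size were common at that level.

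The other beta subunit was lower in KO. Suclg2 was at 4.74 FPKM in WT against 0.662 FPKM in KO, a change of -1.79, past the 3-fold threshold. Its KO value rests on about 16.6 estimated fragments, fewer than any value of the 9 genes, with a counting interval of 0.394 to 1.08 FPKM, and the shares and ratios below rest on it. Sucla2 made up 42.1% of the summed FPKM of the beta subunits in WT and 93.5% in KO, while that sum was 8.18 FPKM in WT against 10.2 FPKM in KO. The ratio of Sucla2 to Suclg1 was 1.38 in WT and 1.51 in KO, and the ratio of Suclg2 to Suclg1 was 1.90 and 0.105. The levels of Suclg1 and Sucla2 thus kept nearly the same ratio in both libraries and that of Suclg2 did not.

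**Figure D2:**
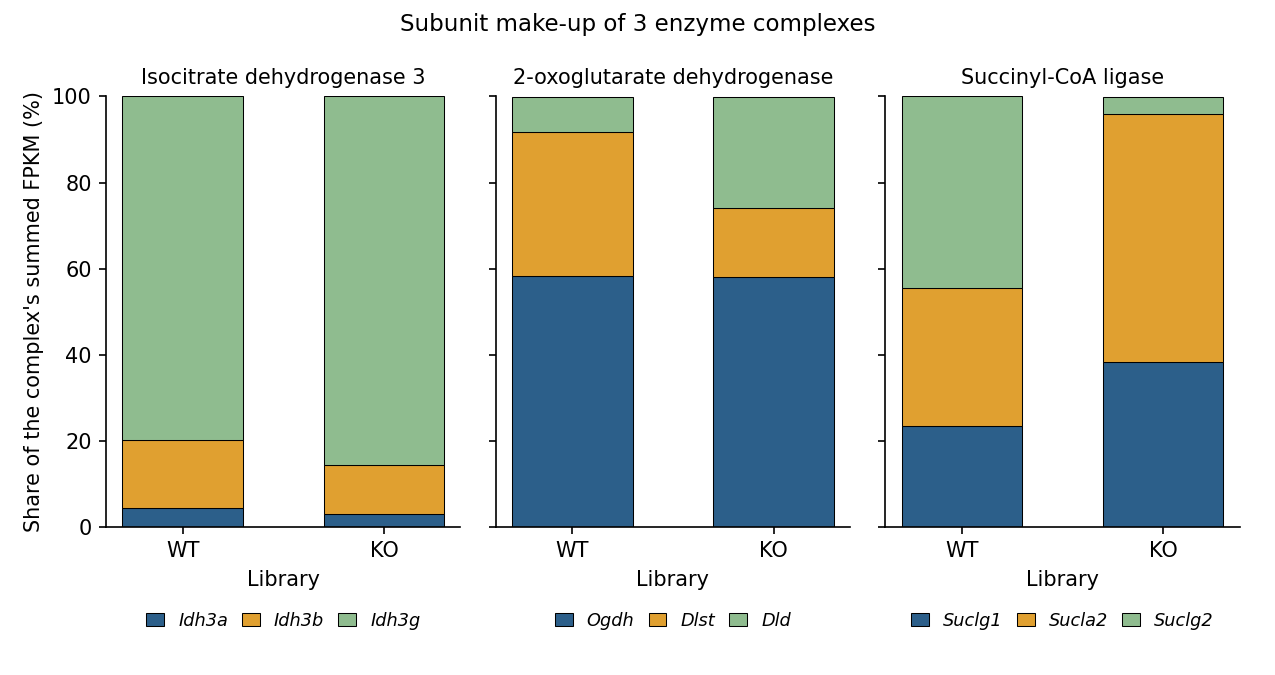
Share in percent of each gene in the summed FPKM of its complex, in the WT and the KO library (1 library each). Ogdh holds 58.2% and 58.0%, Idh3g 79.8% and 85.5%, and Suclg2 is 44.4% of succinyl-CoA ligase in WT and 4.02% in KO.

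Fumarase and malate dehydrogenase close the cycle. Fh1, fumarate hydratase (ENSMUSG00000026526, chr1:175600374-175625635, minus strand), was at 12.1 FPKM in WT against 10.2 FPKM in KO, a change of -0.23, with counting intervals of 10.4 to 13.98 and 8.85 to 11.7 FPKM that overlapped. Mdh2, the mitochondrial malate dehydrogenase (ENSMUSG00000019179, chr5:135778480-135790398, plus strand), was at 123 and 85.1 FPKM, 30.8% lower, a change of -0.53. Among genes of a mean FPKM of 50 to 200 the lower quartile was -0.39, so Mdh2 lay below that quartile. Of these genes 7.84% were 2-fold lower. Mdh1, the cytosolic enzyme, was at 52.4 and 19.9 FPKM, a change of -1.35. Mdh2 stood at 2.35 times Mdh1 in WT and at 4.27 times in KO. For malate as for isocitrate, the cytosolic enzyme was further down in KO than the mitochondrial one. The malic enzymes Me1 (cytosolic) and Me2 (mitochondrial) were both lower, with changes of -2.19 and -0.69. The aspartate aminotransferases Got1 (cytosolic) and Got2 (mitochondrial) were both higher, with changes of 0.39 and 0.29.

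**Figure D3:**
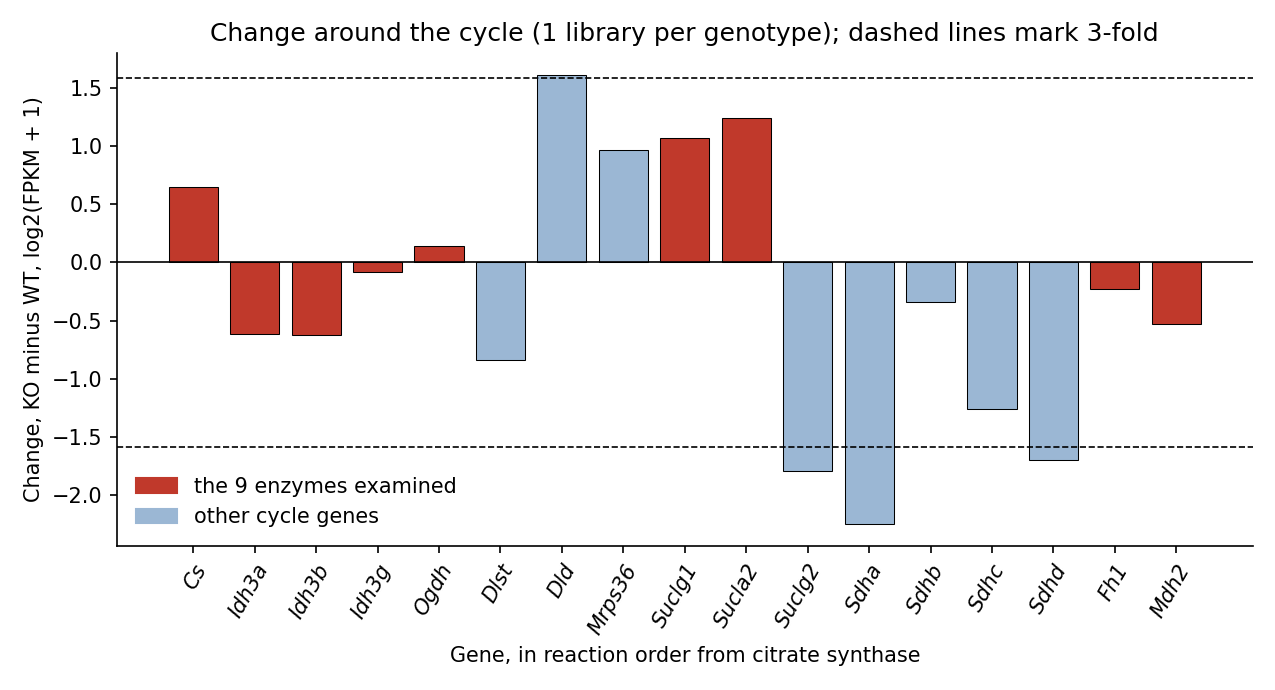
Change in log2(FPKM + 1), KO minus WT, for the 9 enzymes examined (red) and the other cycle genes (blue) in the order of the reactions, 1 library per genotype. No red bar reaches the dashed 3-fold lines, whereas Dld passes the upper and Suclg2, Sdha and Sdhd the lower line.

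The remaining cycle genes included larger differences. Of 8 such genes (Dlst, Dld, Mrps36, Suclg2 and the succinate dehydrogenase genes), 1 was 3-fold higher and 3 were 3-fold lower, with a median change of -1.05. The 4 of them outside succinate dehydrogenase had a median of 0.06, with 2 higher and 2 lower. Over all genes tested 13.6% were 3-fold higher and 13.7% were 3-fold lower. The 4 genes of succinate dehydrogenase, which is also complex II of the respiratory chain, were all lower, as were 48.7% of all genes tested, and had a median of -1.48. Sdha was at 27.1 FPKM in WT against 4.94 FPKM in KO, Sdhb at 78.6 and 61.8, Sdhc at 115 and 47.5, and Sdhd at 50.9 and 15.0. Complex II genes summed to 271 FPKM and 129 FPKM, against 411 and 377 for the 9 enzymes. With 1 library per genotype the difference between these lists was not tested.

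Genes that feed or drain the cycle were mixed. Of 14 genes for the entry of pyruvate, 13 passed the filter. Among these 1 was 3-fold higher and 1 was 3-fold lower, with a median of -0.18, where 27.3% of all genes tested were 3-fold different. Both rest on a value listed at 0 in 1 library (Pdhx in WT, Pdk1 in KO), as do 48.7% of the 3-fold differences over all genes tested. A listed 0 may be a failed estimate and not a lack of RNA, since Aimp2, a scaffold of the tRNA synthetase complex chosen after its values were seen, was at 38.4 FPKM in WT and listed at 0 in KO. Pdhb, a subunit of pyruvate dehydrogenase, was at 30.1 FPKM in WT against 62.6 FPKM in KO, beside Pdha1 at 6.10 and 5.71. Pdk1, a kinase that inhibits pyruvate dehydrogenase and a known HIF-1 target, was at 4.46 FPKM in WT and listed at 0 in KO, and Pdhx was at 4.14 FPKM in KO but listed at 0 in WT. Pcx, which makes oxaloacetate from pyruvate, was at 1.94 FPKM in KO but listed at 0 in WT. Of 12 genes past the filter that draw on or refill cycle intermediates, 0 were 3-fold higher and 2 were lower (Idh1 and Me1), with a median of -0.0023. Among them Acly, which splits exported citrate into acetyl-CoA, was at 34.2 and 53.6 FPKM. Acod1, which makes itaconate, was at 8.31 and 7.59 FPKM.

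Of 5 carriers of citrate, malate, 2-oxoglutarate or aspartate, 3 were lower and 2 were higher, with a median of -0.88, beside 48.7% lower over all genes tested. Slc25a1, the citrate carrier, was at 34.8 FPKM in WT against 18.5 FPKM in KO, Slc25a11 at 50.4 and 23.9, and Slc25a13 at 8.67 and 1.24. Slc25a10 was at 10.9 and 13.0 FPKM and Slc25a12 at 10.2 and 12.9. Of 9 genes for lipoate and iron-sulfur cofactors, 7 passed the filter, and these were all lower, with a median of -0.73 and 2 past 3-fold, where 48.7% of all genes tested were lower and 13.7% were 3-fold lower. Lias, listed at 0 in WT and 0.341 FPKM in KO, and Lipt2, listed at 0 in both, did not pass. Iscu, the scaffold on which iron-sulfur clusters are built, was at 70.0 and 3.83 FPKM, and Lipt1, a lipoyl transferase, at 6.35 FPKM in WT and listed at 0 in KO. Lipt1 thus passed the filter only through WT, which fixed its direction.

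**Figure D4:**
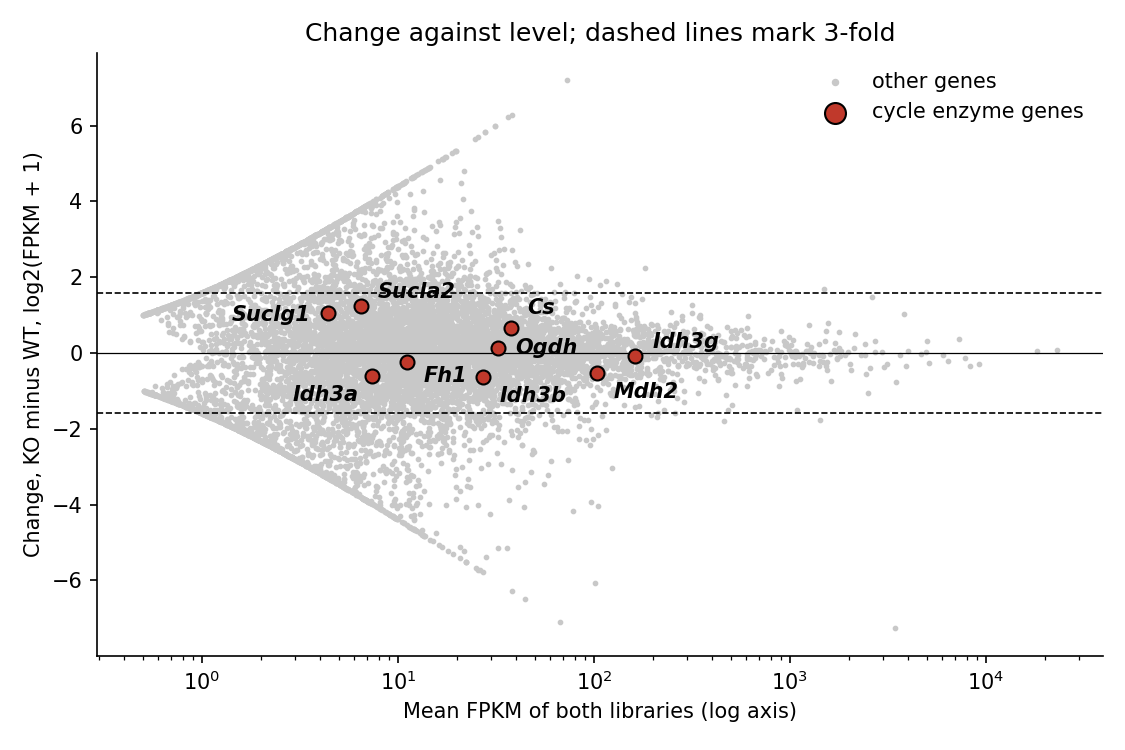
Change in log2(FPKM + 1), KO minus WT, against the mean FPKM of both libraries (log axis) for genes past the filter, with the 9 cycle enzyme genes in red. All 9 lie between the dashed 3-fold lines, and the cloud of other genes narrows as the level rises.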

How the data were processed

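Poly(A) RNA of sorted ATM was sequenced from 1 library per genotype. The authors deposited one table of FPKM values per Ensembl gene. The submitters' processing notes name CASAVA 1.8.2, TopHat2 2.0.9, Cufflinks 2.2.1 and build mm9. The annotation and any filter are not given in the sources used here. The mutant column was assigned to KO, the only library that was not WT.

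Of 20749 rows, 401 repeated another in full and were dropped, and 18 further rows of an identifier already present were summed, none of them a cycle enzyme. Symbols, coordinates and lengths came from GENCODE M21 (GRCm38), with a symbol for 98.5% of identifiers. Changes are differences in log2(FPKM + 1) between KO and WT as the authors scaled them, which understates the change of low genes. FPKM are not counts, so no count model was used. Fragments were estimated from the smallest recurring FPKM x kb in genes with a single transcript, 0.171 in WT (18 genes) and 0.134 in KO (20 genes), and the longest coding transcript. The 95% exact Poisson intervals cover counting error only, since PCR copies are not independent. The call rule was tested on simulated data. Python 3.11.15, pandas 2.3.3 and scipy 1.17.1 were used.

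The genes, the pathway and marker lists and the 3-fold rule were chosen with earlier results of these data known. Named were the 9 enzymes and genes of those lists, plus Hif1a, Apoe and Nop56, the last chosen after its position was seen, and Aimp2. Of the pathway lists 2 genes are not reported here, and 4 marker genes were not analysed here. Alternatives were pseudocounts of 0.1 and 0.01, other filters, scalings and a 2-fold threshold.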

Additional observations from a re-analysis of the deposited data

How the results depend on the processing

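Under 3 other scalings the 9 genes kept their direction in 27 of 27 recomputed changes, and none moved by over 1.5-fold. Each scaling applies the same factor or shift to all genes, so these are not separate checks. The pseudocounts and filters cannot turn a direction. The median of the 9 lay between -0.10 and -0.01 under 8 alternatives, and was -0.15 where genes averaging under 5 FPKM were left out, Suclg1 among them. The log2 ratio of their sums, -0.13 as reported, was -0.08 when libraries were scaled to the same sum and -0.06 at the same upper quartile. The median of the other cycle genes lay between -1.09 and -0.84 under 9. Of those genes 3 instead of 4 were 3-fold different when changes were centred on the median, where Dld was lost, and under both stricter filters, which leave out Suclg2. Suclg1 ranged from 1.04 to 1.33 and Sucla2 from 1.22 to 1.46, highest with a pseudocount of 0.01. The number of the 9 past the threshold went from 0 to 2 with a 2-fold threshold. With that threshold 4694 of all genes passed instead of 2815, against 876 of 7586 where each library had to reach an FPKM of 1 and 1244 of 6872 where the mean had to reach 5, since these filters leave out low genes. Upper-quartile scaling moved the median of all genes to 0.09. No paired analysis was possible because there was 1 library for each genotype, so no library could be left out either. Among the 9, depth limits Suclg1 most, with 22.2 estimated fragments in WT.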
